A study of Mus musculus with 8 samples.

Results

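The genes described here are the Notch receptors *Notch1*, *Notch2* and *Notch3*, the Notch ligands *Jag1*, *Jag2* and *Dll1*, and the Notch target genes *Hes1*, *Hey1*, *Heyl* and *Nrarp*. They were chosen by symbol, and all 10 were found among the 55416 genes of the count table. Of these 10 genes, 8 had enough counts to be tested between genotypes, among 13147 such genes in all. In these libraries of P4 epidermis, 2 receptors (*Notch2*, *Notch3*) and 2 targets (*Nrarp*, *Hes1*) were the most abundant members per length of transcript. *Dll1* and *Hey1* were at the limit of detection in these libraries, in which spinous keratins were far above basal keratins. None of the 8 tested members passed the cutoffs between genotypes, which 5.51% of all genes tested did. Among 57 other tested genes linked to the pathway, 4 passed (7.02%): *Dtx4* and *Psen2* were lower and *Tle1* and *Tslp* were higher in the libraries labelled *RoraEKO*.

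Notch receptors are single-pass membrane proteins that bind Jagged and Delta ligands on a neighboring cell. Binding exposes the receptor to an ADAM protease and then to γ-secretase, and the released intracellular domain enters the nucleus, where it joins the DNA-binding protein RBPJ and Mastermind coactivators to switch on genes of the *Hes*, *Hey* and *Nrarp* type. In the epidermis this pathway is known for promoting the commitment of keratinocytes as they leave the basal layer for the spinous layer.

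The data are gene-level RNA-seq counts of dorsal epidermis from P4 mice, with 4 control libraries (A1, B1, C1 and C6) and 4 libraries labelled *RoraEKO* (A3, B4, C2 and C3). *RoraEKO* mice carry floxed *Rora* alleles and a Cre transgene under the keratin 14 promoter, which is active in basal keratinocytes and in their descendants, the hair follicles included. Control animals are labelled WT and are called littermates by the study, and which of the floxed allele and the transgene they carried is not given in the sources used here. The dorsal skin was separated by heat into epidermis and dermis, and each library is taken as a separate sample, since the labels do not say whether animals were pooled.

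The smallest library held 17286903 counts and the largest 26705533. With library sizes scaled by TMM factors, 3 counts, taken as the floor of detection, corresponded to 0.113 to 0.196 counts per 1000000 (CPM). The gene-level count of *Rora* did not separate the genotypes (adjusted p = 0.877), so it does not check the labels. *Xist*, transcribed from the inactive X chromosome, exceeded the floor in 2 of the 8 libraries, control C1 and C6, and in none labelled *RoraEKO*, so sex was not balanced between the genotypes. Spinous keratins were far above basal keratins per kilobase of transcript in control libraries, with *Krt1* at 12206 ± 3306 and *Krt14* at 72.6 ± 33.6 CPM per kb (SD, n = 4). All members but *Jag2* and *Heyl*, and also *Psen2*, *Tle1* and *Pofut1*, overlap an annotated gene on the other strand, and whether the counting used strand is not given in the sources used here. In bulk tissue of this kind, fewer cells of a type and less RNA per cell cannot be told apart.

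*Notch1*, the receptor best known in keratinocytes, lies on the minus strand of chromosome 2 (ENSMUSG00000026923, chr2:26347915-26406675 of GRCm39). It was at 28.9, 37.1, 30.6 and 29.8 CPM in control A1, B1, C1 and C6, and at 25.8, 29.6, 22.8 and 29.5 CPM in *RoraEKO* A3, B4, C2 and C3. The 2 lowest libraries for *Notch1* were labelled *RoraEKO* and the highest was a control, but the genotypes overlapped. Its mean was 31.6 ± 3.71 CPM in control and 26.9 ± 3.25 CPM in *RoraEKO* epidermis (SD, n = 4), a log2 fold change of -0.23 (SE 0.12, adjusted p = 0.42, quasi-likelihood test of edgeR).

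*Notch2* (ENSMUSG00000027878, chr3:97920800-98057677, plus strand) gave the highest CPM of all 10 members. It was at 144, 130, 123 and 171 CPM in the control libraries and at 126, 133, 136 and 134 CPM in those labelled *RoraEKO*, in the library order used for *Notch1*, which is kept for every gene. The *RoraEKO* values all lay inside the control range and were less spread, with means of 142 ± 21.6 CPM in control and 132 ± 4.52 CPM in *RoraEKO* epidermis (SD, n = 4). The log2 fold change was -0.10 (SE 0.109, adjusted p = 0.766, edgeR).

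*Notch3* (ENSMUSG00000038146, chr17:32339794-32385893, minus strand), a receptor also known from the smooth muscle cells and pericytes of blood vessels, was at 52.0, 70.7, 70.6 and 82.1 CPM in control and at 66.4, 78.9, 85.0 and 82.2 CPM in *RoraEKO* epidermis. The lowest library was control A1 and the highest was *RoraEKO* C2, with the other values interleaved. Means were 68.8 ± 12.4 and 78.1 ± 8.23 CPM (SD, n = 4), a log2 fold change of 0.18 (SE 0.159, adjusted p = 0.616, edgeR). Of 5 markers of mural cells, *Rgs5* reached at most 7 counts, *Pdgfrb* 2 counts and *Abcc9* 1 count in the same libraries, whereas *Cspg4* reached 37 counts and *Acta2* 29 counts. The 5 summed to between 0.805 and 2.55 CPM in control and between 0.849 and 1.89 CPM in *RoraEKO* libraries, and only *Cspg4* and *Acta2* were tested, neither of which passed the cutoffs. Control A1, the lowest library for *Notch3*, also had the lowest sum of 5 spinous markers (40409 CPM) and the highest sum of 8 hair follicle markers (24023 CPM) of the 8 libraries, and without it the log2 fold change of *Notch3* was 0.069. The part of mural, spinous and hair follicle cells in the *Notch3* values was not tested.

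*Jag1* (ENSMUSG00000027276, chr2:136923373-136958693, minus strand), a Jagged ligand, was at 19.9, 21.2, 22.1 and 24.5 CPM in control and at 20.4, 16.0, 25.2 and 26.0 CPM in *RoraEKO* epidermis. The *RoraEKO* values reached both below and above the control range. Means were 21.9 ± 1.91 and 21.9 ± 4.66 CPM (SD, n = 4), with a log2 fold change of -0.0025 (SE 0.173, adjusted p = 0.999, edgeR) whose sign changed with the scaling of the libraries.

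*Jag2* (ENSMUSG00000002799, chr12:112871421-112893437, minus strand), the other Jagged ligand, was lower and far more variable than *Jag1*. It was at 8.53, 4.32, 3.22 and 1.58 CPM in control and at 1.5, 6.41, 1.69 and 2 CPM in *RoraEKO* epidermis. The 2 highest libraries, control A1 and *RoraEKO* B4, came from different genotypes, and so did the 2 lowest. Means were 4.41 ± 2.97 and 2.9 ± 2.35 CPM (SD, n = 4), a log2 fold change of -0.59 (SE 0.678, adjusted p = 0.692, edgeR) that was -0.04 without control A1 (adjusted p = 0.981) and -1.35 without *RoraEKO* B4 (adjusted p = 0.234).

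The libraries with high *Jag2* were also high in a gene of the basal layer. *Col17a1*, which encodes a hemidesmosomal collagen of basal keratinocytes and was chosen for this comparison after its values were seen, was at 53.6, 28.3, 41.8 and 13.4 CPM in control and at 12.5, 52.1, 10.6 and 15.1 CPM in *RoraEKO* epidermis. Both genes were highest in control A1 and *RoraEKO* B4. *Krt14* and *Itgb4* were highest in these same libraries, whereas for *Krt5* and *Itga6* control C1 was above control A1. The 5 basal markers (*Krt5*, *Krt14*, *Itga6*, *Itgb4* and *Col17a1*) were all tested, none passed the cutoffs, and their sum was 466, 302, 470 and 151 CPM in control and 242, 1142, 189 and 285 CPM in *RoraEKO* libraries, none of them being at or under the floor in every library. Their part in the *Jag2* values was not tested.

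*Dll1* (ENSMUSG00000014773, chr17:15587276-15597134, minus strand), a Delta ligand, was at 0.457, 0.164, 0.615 and 0.263 CPM in control and at 0.131, 0.288, 0.0482 and 0.0999 CPM in *RoraEKO* epidermis. It reached at most 13 counts and exceeded the floor of 3 counts in 4 of the 8 libraries, so it did not pass the filter and no direction is read from it. Tested with all genes of at least 1 count, its log2 fold change was -1.28 (adjusted p = 0.504, edgeR). Among 5 other receptor and ligand genes, *Notch4* and *Dll4* reached at most 4 counts, *Dlk1* 8 counts and *Dll3* 9 counts in any library. *Dlk2*, a Delta-like gene, reached 35 counts (1.44 CPM) in *RoraEKO* B4 and 30 counts (1.14 CPM) in control A1 and exceeded the floor in 5 libraries. None of these 5 genes had enough counts to be tested.

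**Figure D1:**
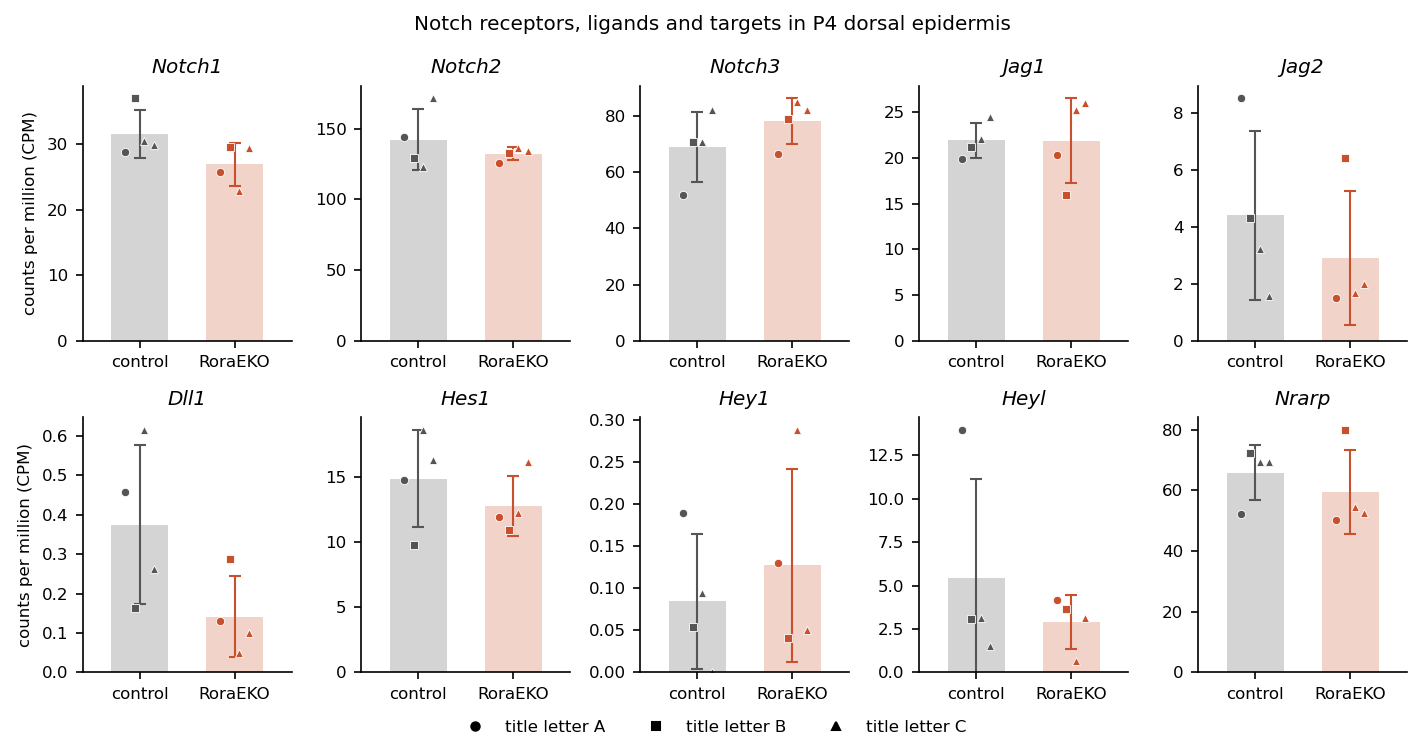
Levels of the 10 members in CPM (vertical axes, each from 0), with bars for the mean of 4 libraries per genotype, error bars for the SD and points for single libraries, shaped by the first letter of the sample title. The genotypes overlap in all panels, *Notch2* is the highest, and control A1 stands apart from the other controls for *Heyl*.

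The target genes encode nuclear proteins that act after the receptor is cut. For 3 of them the window of 250 bases before the start of the canonical transcript is shown, in GRCm39 and 5′ to 3′ on the strand of the gene. The windows are shown so that the letters of the RBPJ site can be seen beside the levels, with starts from release 39 of the GENCODE annotation. The *Hes1* window lies inside the span of the gene given below, since that span begins upstream of the canonical start. Capitals mark TGGGAA, the core letters of the RBPJ site, on either strand.
Hes1, chr16:29883877-29884126, plus strand: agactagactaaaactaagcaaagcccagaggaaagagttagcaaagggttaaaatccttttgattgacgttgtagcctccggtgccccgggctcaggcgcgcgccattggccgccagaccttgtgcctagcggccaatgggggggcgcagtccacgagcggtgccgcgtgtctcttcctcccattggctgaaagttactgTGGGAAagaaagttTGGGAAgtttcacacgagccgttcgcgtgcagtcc
Heyl, chr4:123127099-123127348, plus strand: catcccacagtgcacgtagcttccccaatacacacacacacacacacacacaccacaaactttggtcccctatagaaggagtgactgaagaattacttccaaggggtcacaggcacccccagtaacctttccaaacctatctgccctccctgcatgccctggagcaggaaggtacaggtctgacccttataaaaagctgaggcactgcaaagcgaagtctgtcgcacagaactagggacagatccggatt
Nrarp, chr2:25070520-25070769, plus strand: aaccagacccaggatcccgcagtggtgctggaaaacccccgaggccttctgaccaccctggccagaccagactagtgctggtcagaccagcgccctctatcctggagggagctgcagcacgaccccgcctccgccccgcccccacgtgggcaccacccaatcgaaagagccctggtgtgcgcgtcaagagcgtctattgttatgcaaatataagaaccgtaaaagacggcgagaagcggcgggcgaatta
The *Hes1* window held 2 matches to TGGGAA on the gene strand, from 49 to 44 and from 35 to 30 bases before the start, and the first extended to GTGGGAA. *Hey1* held 1 match on the opposite strand, from 175 to 170 bases before its start, which also extended to GTGGGAA. The windows of the other 8 members, *Heyl* and *Nrarp* among them, held none. Of 21770 such windows of protein-coding genes, 22.7% held TGGGAA and 5.48% held GTGGGAA on either strand, with matches to the longer letters counted among those to the shorter. A match here describes letters in the window and does not show binding, and the absence of a match says only that these letters are not in it.

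*Hes1* (ENSMUSG00000022528, chr16:29882134-29886643, plus strand), a basic helix-loop-helix repressor that is the best known epidermal target, was at 14.8, 9.78, 18.6 and 16.3 CPM in control and at 11.9, 10.9, 12.2 and 16.1 CPM in *RoraEKO* epidermis. All 4 *RoraEKO* values lay inside the control range. Means were 14.9 ± 3.73 and 12.8 ± 2.30 CPM (SD, n = 4), a log2 fold change of -0.22 (SE 0.233, adjusted p = 0.673, edgeR). Without the control libraries that carried *Xist*, C1 and C6, the log2 fold change of *Hes1* was 0.11.

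*Heyl* (ENSMUSG00000032744, chr4:123127349-123143682, plus strand), a repressor of the Hey family, was at 14.0, 3.06, 3.12 and 1.5 CPM in control and at 4.18, 3.66, 0.675 and 3.15 CPM in *RoraEKO* epidermis. Control A1 was far above the other 7 libraries, and *RoraEKO* C2 was the lowest. Means were 5.41 ± 5.75 and 2.91 ± 1.55 CPM (SD, n = 4), a log2 fold change of -0.90 (SE 0.878, adjusted p = 0.588, edgeR) that was 0.19 without control A1 (adjusted p = 0.891).

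*Heyl* was ordered across libraries much like *Lef1*, a transcription factor of the hair follicle matrix that was chosen for this comparison after its values were seen. *Lef1* was at 14.0, 4.10, 3.46 and 1.84 CPM in control and at 5.61, 5.88, 1.35 and 4.64 CPM in *RoraEKO* epidermis. Both genes were highest in control A1 and lowest in *RoraEKO* C2. All 8 hair follicle markers were highest in control A1, but apart from *Lef1* and *Lhx2* they were lowest in a control library, C6 or C1. These 8 markers were all tested, none passed the cutoffs and none was at or under the floor in every library, and their sum was 24023, 11327, 3485 and 2995 CPM in the control libraries and 15569, 13465, 5988 and 6601 CPM in those labelled *RoraEKO*. Their part in the *Heyl* values was not tested.

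**Figure D2:**
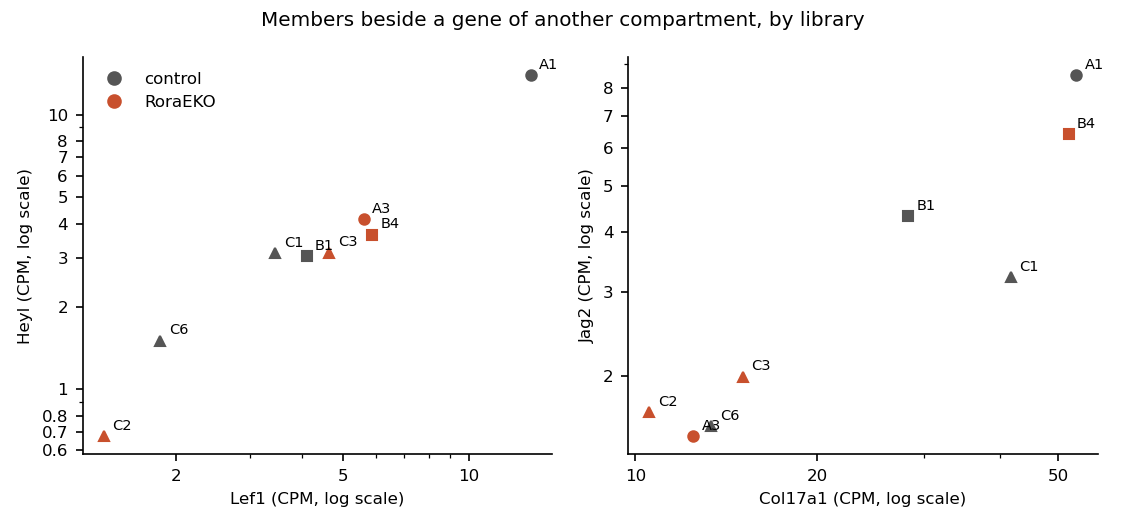
*Heyl* against *Lef1* (left) and *Jag2* against *Col17a1* (right), both in CPM on log axes, with 1 point per library colored by genotype and labelled by replicate. Control A1 is highest for *Heyl* and *Lef1*, and control A1 and *RoraEKO* B4 are highest for *Jag2* and *Col17a1*.

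*Nrarp* (ENSMUSG00000078202, chr2:25070770-25073351, plus strand), an ankyrin-repeat protein that binds the Notch intracellular domain and limits its signal, was at 52.3, 72.2, 69.4 and 69.3 CPM in control and at 50.4, 80.0, 54.6 and 52.7 CPM in *RoraEKO* epidermis. In the control group A1 was low and the other 3 were close together, whereas in the *RoraEKO* group B4 was high and the other 3 were close together. Means were 65.8 ± 9.12 and 59.4 ± 13.8 CPM (SD, n = 4), a log2 fold change of -0.15 (SE 0.187, adjusted p = 0.753, edgeR).

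*Hey1* (ENSMUSG00000040289, chr3:8726956-8732385, minus strand), another Hey repressor, was at 0.19, 0.0546, 0.0947 and 0 CPM in control and at 0.131, 0.0411, 0.289 and 0.0499 CPM in *RoraEKO* epidermis. It reached at most 6 counts, exceeded the floor in 2 libraries and did not pass the filter. Tested with all genes of at least 1 count, its log2 fold change was 0.58 (adjusted p = 0.836, edgeR). Among the 7 other genes of the Hes and Hey families, *Hes5* had 0 counts in all 8 libraries, and only *Hes2* and *Hes6* were tested. *Hes6* was at 2.34 ± 0.57 CPM in control and at 1.52 ± 0.334 CPM in *RoraEKO* epidermis (SD, n = 4), with a log2 fold change of -0.62 that did not pass the cutoffs (adjusted p = 0.277, edgeR).

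Per kilobase of the canonical transcript, the order of the members in control epidermis was *Nrarp*, *Notch2*, *Hes1*, *Notch3*, *Jag1*, *Notch1*, *Heyl*, *Jag2*, *Dll1* and *Hey1*. *Nrarp* stood at 25.5 ± 3.53 CPM per kb, and its control range did not overlap that of *Notch2* at 13.5 ± 2.04 CPM per kb (SD, n = 4). *Notch2*, *Hes1* (9.72 ± 2.44 CPM per kb) and *Notch3* (8.52 ± 1.54 CPM per kb) overlapped from neighbor to neighbor. A gap followed, since *Notch3* did not overlap *Jag1* at 3.82 ± 0.333 CPM per kb. *Jag1*, *Notch1* (3.33 ± 0.391 CPM per kb), *Heyl* (1.19 ± 1.26 CPM per kb) and *Jag2* (0.854 ± 0.574 CPM per kb) again overlapped in turn. *Heyl* reached *Notch1* only in control A1, at 3.07 CPM per kb beside 3.04 in the lowest control for *Notch1*. *Dll1* and *Hey1* lay below these genes, *Dll1* apart from *Jag2* and overlapping *Hey1*. The levels and the order are a description of the 4 control libraries, in which spinous keratins were far above basal keratins. The part of the epidermal layers in this order was not tested.

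Read together between genotypes, 0 of the 8 tested members passed both cutoffs, which were 0.05 for the adjusted p and 1.5 for the fold change, against 5.51% of all genes tested. At an unadjusted p under 0.05 the count was also 0 of 8, with edgeR's quasi-likelihood and likelihood ratio tests and with DESeq2, against 18.2% of all genes by the first of these. Genotypes did not overlap for 0 of 8 members, against 12.9% of all genes. The median log2 fold change of the 8 members was -0.18, beside -0.04 over all genes, and 7 of the 8, as well as 7370 of all 13147 genes, were below 0, among the former *Jag1*, which was above 0 with RLE size factors.

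A difference that missed the cutoffs is bounded by its interval. The 95% interval of the difference in mean log2 CPM was -0.52 to 0.06 for *Notch1*, -0.36 to 0.17 for *Notch2*, -0.19 to 0.58 for *Notch3* and -0.45 to 0.40 for *Jag1*. These 4 intervals lay within a 1.5-fold change in either direction, that of *Notch3* only just, as did those of 4343 of the 13147 genes tested. For *Nrarp* (-0.62 to 0.30) and *Hes1* (-0.76 to 0.38) the interval reached beyond a 1.5-fold decrease. For *Jag2* (-2.27 to 1.05) and *Heyl* (-2.78 to 1.52) it spanned large changes in both directions, so these libraries do not show whether either gene differed.

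**Figure D3:**
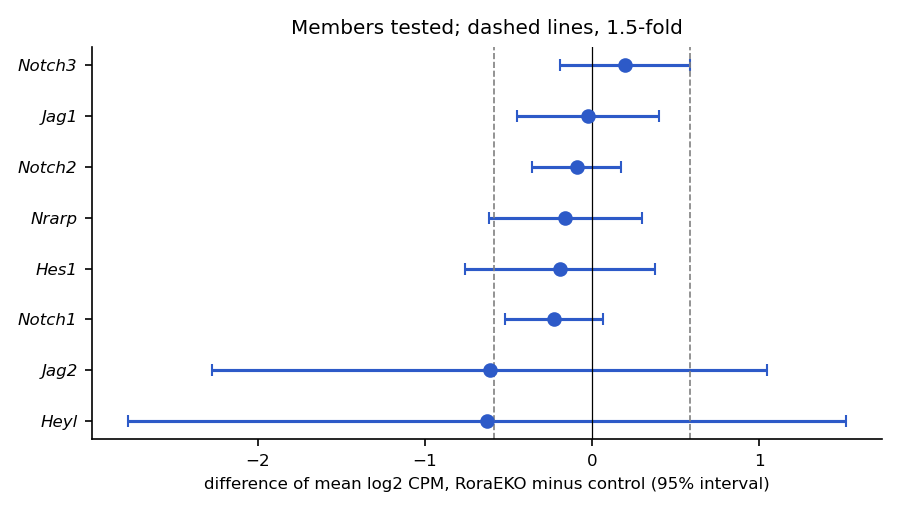
Difference in mean log2 CPM, *RoraEKO* minus control, for the 8 tested members (points) with 95% intervals (bars, 4 libraries per genotype) and dashed lines at a 1.5-fold change. All 8 intervals include 0, and those of *Jag2* (-2.27 to 1.05) and *Heyl* (-2.78 to 1.52) are the widest.

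The first letter of the sample titles (A, B or C) splits the libraries, and its meaning is not in the labels. Within letters A, B and C, the difference in log2 CPM of *Notch1* between genotypes was -0.16, -0.32 and -0.22, and that of *Notch3* was 0.35, 0.16 and 0.14. For *Jag2* it was -2.44, 0.56 and -0.29, and for *Heyl* it was -1.72, 0.25 and -0.52, so both changed sign between letters. *Notch2*, *Jag1*, *Hes1* and *Nrarp* changed sign between letters as well, at sizes of 0.41 or less.

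The genes most like *Notch1* and *Hes1* across the 8 libraries were named by the Pearson correlation of log2 CPM over all genes tested. This is a description only, since the 8 libraries differ in depth and genotype, and either can enter the correlation. They were *Dpcd* (r = 0.951), *Sdhd* (r = 0.940) and *Ears2* (r = 0.926) for *Notch1*. For *Hes1* they were *9930017N22Rik* (r = 0.947), *Riok1* (r = 0.931) and *Zfp235* (r = 0.930). No member, and no gene of the other pathway lists, was among these 6.

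Of 72 other genes placed in lists by their role in the pathway, 57 were tested. The cutoffs were passed by 4 of them, or 7.02%, beside 5.51% of all genes, with 2 higher and 2 lower, and their median log2 fold change was -0.02. Without control B1 or without *RoraEKO* C3 the count was 2, while the count over all genes went from 725 to 457 and 475. By list, 0 of 6 tested genes passed for receptor glycosylation, 1 of 10 for receptor proteolysis, 0 of 3 for ligand ubiquitylation, 0 of 8 for the nuclear complex, 1 of 10 for corepressors, 1 of 10 for turnover and trafficking, 0 of 2 for other Hes and Hey genes, and 1 of 8 for keratinocyte genes linked to Notch. Genotypes did not overlap for 10 of the 57 (17.5%, beside 12.9% of all genes). Without the 8 keratinocyte genes, which are not components of the pathway, 3 of 49 (6.12%) passed and 6 of 49 (12.2%) did not overlap.

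*Dtx4* (ENSMUSG00000039982, chr19:12443699-12479479, minus strand) encodes a ubiquitin ligase of the Deltex family, whose members act on Notch receptor trafficking. It was at 7.42, 5.96, 5.02 and 9.01 CPM in control and at 0.131, 0.411, 0.482 and 0.449 CPM in *RoraEKO* epidermis, from 106 to 240 counts in the former and from 2 to 10 counts in the latter. Every control library was more than 10 times above every *RoraEKO* library. *Dtx4* fell from 6.85 ± 1.75 to 0.368 ± 0.161 CPM (SD, n = 4), a log2 fold change of -4.16 (SE 0.368, adjusted p = 0.000244, edgeR), or 17.9-fold lower, and within title letters B and C the difference in log2 CPM was -3.59 and -3.61. Within letter A it had 195 counts in control A1 and 2 counts, under the floor, in *RoraEKO* A3. *Dtx2*, of the same family, was at 44.9 ± 4.19 and 43.4 ± 5.02 CPM (SD, n = 4; log2 fold change -0.05, adjusted p = 0.907, edgeR). *Dtx3* (log2 fold change -0.25, adjusted p = 0.828) and *Dtx3l* (0.01, adjusted p = 0.994) did not pass either (edgeR), and *Dtx1* was not tested.

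The window before the start of *Dtx4* is shown because it was the pathway gene that fell most. Capitals mark AGGTCA, the core letters of the site that ROR family receptors bind, here on the opposite strand.
Dtx4, chr19:12479480-12479729, minus strand: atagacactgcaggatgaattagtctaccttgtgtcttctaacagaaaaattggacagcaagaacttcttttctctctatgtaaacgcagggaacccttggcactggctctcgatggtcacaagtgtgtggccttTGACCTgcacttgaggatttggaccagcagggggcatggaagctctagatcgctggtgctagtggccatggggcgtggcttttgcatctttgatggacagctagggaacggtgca
The match lay from 115 to 110 bases before the start and did not extend to TAGGTCA. On either strand, AGGTCA occurred in 13.1% of the 21770 windows and TAGGTCA in 2.17%, and none of the 10 members held AGGTCA, nor did *Psen2*, *Tle1* and *Pofut1*. The *Tle1* window held 1 GTGGGAA on the opposite strand, from 173 to 167 bases before its start. This too is a description of letters in the window.

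*Psen2* (ENSMUSG00000010609, chr1:180054569-180091003, minus strand) encodes a catalytic subunit of γ-secretase, the protease that releases the Notch intracellular domain. It was at 3.20, 2.73, 2.37 and 1.54 CPM in control and at 0.914, 1.40, 0.771 and 0.549 CPM in *RoraEKO* epidermis, with all controls above all *RoraEKO* libraries by a narrow margin. *Psen2* fell from 2.46 ± 0.701 to 0.908 ± 0.359 CPM (SD, n = 4), a log2 fold change of -1.42 (SE 0.333, adjusted p = 0.0466, edgeR), or 2.68-fold lower, and lost the call under 9 of 17 alternatives (adjusted p up to 0.152).

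*Tle1* (ENSMUSG00000008305, chr4:72030376-72119280, minus strand) encodes a Groucho-type corepressor that Hes proteins recruit. It was at 6.85, 5.30, 10.1 and 6.04 CPM in control and at 14.0, 15.2, 13.1 and 14.0 CPM in *RoraEKO* epidermis, where the 4 libraries were close together and all above the controls. *Tle1* rose from 7.08 ± 2.13 to 14.1 ± 0.843 CPM (SD, n = 4), a log2 fold change of 0.99 (SE 0.204, adjusted p = 0.0173, edgeR). The adjusted p was 0.0542 without control B1 and 0.052 without *RoraEKO* C3.

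*Tslp*, an alarmin cytokine known to rise in epidermis that lacks Notch signaling, had 0, 1, 0 and 1 counts in control and 16, 21, 30 and 34 counts in *RoraEKO* epidermis. It rose in all 4 *RoraEKO* libraries and was at least 9.48-fold higher, computed against the floor of 3 counts in each control library (adjusted p = 0.00119, edgeR). The other 7 keratinocyte genes of that list did not pass. The spinous keratins *Krt1* and *Krt10* had values above the control range in every *RoraEKO* library, with *Krt1* at 29965 ± 8117 and 48566 ± 3699 CPM (log2 fold change 0.70, adjusted p = 0.287) and *Krt10* at 23895 ± 4631 and 37714 ± 5663 CPM (log2 fold change 0.66, adjusted p = 0.274; SD, n = 4, edgeR). The 5 spinous markers summed to between 40409 and 67731 CPM in control and between 82196 and 102750 CPM in *RoraEKO* libraries, a sum made up mostly of *Krt1* and *Krt10*. None of the 5 passed the cutoffs, and the genotypes overlapped for the other 3, *Dsg1a* (log2 fold change 0.02), *Dsc1* (0.37) and *Krtdap* (-0.34). *Wnt4*, a ligand that Notch signaling is known to repress in keratinocytes, lay at 121 ± 18.0 and 88.8 ± 11 CPM (SD, n = 4), without overlap and without passing (log2 fold change -0.44, adjusted p = 0.119, edgeR).

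**Figure D4:**
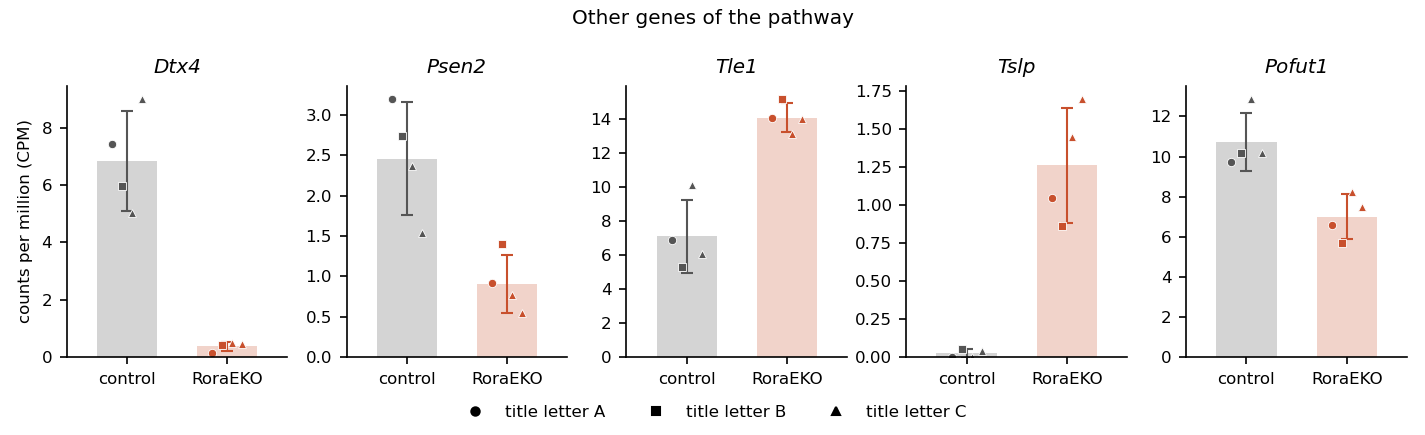
Levels of *Dtx4*, *Psen2*, *Tle1*, *Tslp* and *Pofut1* in CPM (vertical axes, each from 0), with bars for the mean of 4 libraries per genotype, error bars for the SD and points for single libraries. The genotypes do not overlap in any of the 5 panels, and *Pofut1* is the 1 gene of the 5 that did not pass the cutoffs.

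*Pofut1* (ENSMUSG00000046020, chr2:153083382-153112167, plus strand) encodes the enzyme that adds O-fucose to the extracellular repeats of Notch. It was at 9.71, 10.2, 12.9 and 10.2 CPM in control and at 6.59, 5.67, 8.24 and 7.49 CPM in *RoraEKO* epidermis, so all controls were above all *RoraEKO* libraries. Its log2 fold change was -0.62 (SE 0.147) and the adjusted p of 0.0583 missed the cutoff with edgeR's quasi-likelihood test, while it was 0.0262 with DESeq2, 0.0365 with the likelihood ratio test, 0.0253 with the title letter as a block and 0.0495 without control A1. *Pofut1* did not pass both cutoffs under 13 of 17 alternatives, with an adjusted p of up to 0.29 without both *Xist* libraries (edgeR). Within title letters A, B and C its difference in log2 CPM was -0.55, -0.83 and -0.54. *Furin*, a convertase that cuts Notch receptors on their way to the cell surface, was at 109 ± 39.4 and 61.1 ± 13.9 CPM with overlapping genotypes (SD, n = 4; log2 fold change -0.83, adjusted p = 0.123, edgeR), and passed with that block, with *Xist* as a covariate and without control C1. *Eogt*, which adds O-GlcNAc to the same kind of repeat, was at 5.04 ± 0.787 and 3.02 ± 0.929 CPM (SD, n = 4; log2 fold change -0.73, adjusted p = 0.122, edgeR), and passed without *RoraEKO* B4. *Tle4*, a further Groucho-type corepressor, was at 7.02 ± 0.418 and 9.37 ± 1.26 CPM (SD, n = 4; log2 fold change 0.42, adjusted p = 0.144, edgeR). *Rbpj*, the DNA-binding partner of the Notch intracellular domain, was at 32.4 ± 5.25 and 25.2 ± 3.30 CPM with overlapping genotypes (SD, n = 4; log2 fold change -0.36, adjusted p = 0.225, edgeR).

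**Figure D5:**
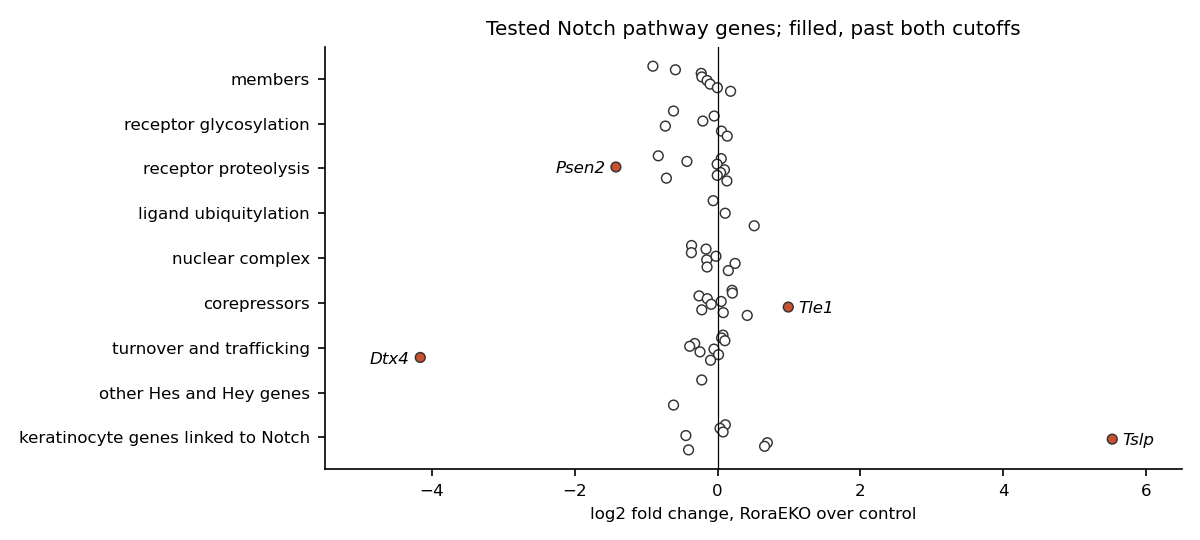
Fitted log2 fold change, *RoraEKO* over control (horizontal axis), of the 8 tested members and of the other tested pathway genes by list (rows), with filled points for genes past both cutoffs. The members lie between -0.90 and 0.18, and only *Psen2*, *Dtx4*, *Tle1* and *Tslp* are filled; the position of *Tslp*, at 1 count or fewer in every control library, depends on the prior count of the fit.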

How the data were processed

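RNA-seq was done on heat-separated dorsal epidermis of P4 mice with a stranded polyA library kit. The authors deposited expected counts per Ensembl gene, estimated with RSEM after mapping to GRCm39 with STAR 2.5.3a, and did not normalize them. Whether counting used strand is not given in the sources used here, so reads of genes that overlap another gene on the other strand cannot be told apart from that gene's reads with certainty.

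The 10 members, the pathway and marker lists and the tests were chosen with earlier results of these data known. Expected counts were rounded, filtered with filterByExpr, scaled with TMM factors and tested across 13147 genes in edgeR 4.0.16 (quasi-likelihood test, legacy form) in R 4.3.3, without covariates and with Benjamini-Hochberg adjustment. Cutoffs were set at 0.05 for the adjusted p and at 1.5 for the fold change. SE and intervals (t distribution, 6 degrees of freedom) are those of the difference of mean log2 CPM computed here with a prior count of 2, while log2 fold changes come from the fit. CPM was divided by the length of the canonical transcript of GENCODE release 39, in which 54749 of 55416 identifiers were found, to compare genes. A floor of 3 counts and these intervals cover counting and replicate error only. The p-values set the genotype difference against the spread between libraries of a genotype, as modelled by each test. They do not separate genotype from sex, which was not balanced.

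Named genes were all members, *Rora*, *Xist*, pathway genes past the cutoffs or with genotypes that did not overlap, markers of cell types known for a member, and the 3 genes most like *Notch1* and *Hes1*. *Rbpj*, *Furin*, *Hes6*, *Col17a1*, *Lef1*, the low receptors and ligands, and the other *Tle* and *Dtx* genes were named after their values were seen. Each comparison was repeated with RLE size factors, library size alone, all genes with at least 1 count, DESeq2 1.42.0, the likelihood ratio and non-legacy quasi-likelihood tests, the title letter as a block, *Xist* as a covariate and each library left out in turn. Leaving out both libraries with *Xist* was chosen after seeing the data. Tests were tried on simulated data first, and plots were drawn with matplotlib 3.10.9.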

Additional observations from a re-analysis of the deposited data

Results flagged for a closer look

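Among 32 groups of 4 libraries (each genotype for each gene checked), 5 held a library whose gap to the nearest other exceeded Dixon's critical value at the 95% level, and chance gives about 1 in 20. *Jag2* was at 6.41 CPM in *RoraEKO* B4, with 2 CPM the next highest of its group. *Heyl* was at 14.0 CPM in control A1, with 3.12 CPM the next highest. *Nrarp* was at 52.3 CPM in control A1, with 69.3 CPM the next lowest, and at 80.0 CPM in *RoraEKO* B4, with 54.6 CPM the next highest. *Pofut1* was at 12.9 CPM in control C1, with 10.2 CPM the next highest.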

How the results depend on the processing

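None of the 8 tested members passed the cutoffs under any of the 17 alternatives. Small differences changed sign. *Jag1* was above 0 with RLE size factors (0.026), all genes with at least 1 count (0.046), DESeq2 (0.026), *Xist* as a covariate (0.092) and both *Xist* libraries left out (0.14), and ran from -0.094 to 0.12 with single libraries left out. *Hes1* was at 0.052 with *Xist* as a covariate and 0.11 without both *Xist* libraries. *Notch2* was at 0.0013 without both, and ran from -0.17 to 0.026 with single libraries left out, above 0 without control C6. *Heyl* ran from -1.18 to 0.19 with single libraries left out, above 0 without control A1, and was at -1.57 with *Xist* as a covariate and -1.5 without both *Xist* libraries. *Notch1* (-0.29 to -0.087), *Notch3* (0.069 to 0.40), *Jag2* (-1.35 to -0.038) and *Nrarp* (-0.32 to -0.013) kept their direction under all 17, the values nearest 0 being those without *RoraEKO* C2, without control A1, without control A1 and without both *Xist* libraries. At an unadjusted p under 0.05, 1 member passed with *Xist* as a covariate (*Heyl*) and 2 without *RoraEKO* B4 (*Jag2* and *Nrarp*). Of the 57 other pathway genes, 6 passed with the title letter as a block, which added *Furin* and *Pofut1*, 7 passed with DESeq2, which added *Krt1*, *Krt10* and *Pofut1* (1031 of all genes passed with it, and 1009 with the likelihood ratio test), and between 2 and 5 passed with single libraries left out, the 2 being *Dtx4* and *Tslp* without control B1 and without *RoraEKO* C3. *Dtx4* and *Tslp* passed under all 17 alternatives, *Tle1* under 15 and *Psen2* under 8. Over all genes, 460 passed with *Xist* as a covariate, 314 without both *Xist* libraries and between 457 and 896 with single libraries left out, and 999 with the title letter as a block, against 725. The cause of these shifts was not tested. The median log2 fold change of all genes was -0.04 with TMM factors, -0.01 with RLE size factors and -0.10 with library size alone.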
